A study of Mus musculus with 18 samples.

Results

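In 18 RNA libraries of cultured mouse testes, 347 of 22657 genes reached their highest level in A50, the testes of mice without busulfan that were cultured with alginate oligosaccharide (AOS) at 50 µg/mL. The genes were chosen by their values: the lowest of the 3 A50 samples had to lie above the highest of the other 15 samples, and the mean of A50 had to be at least 2 FPKM. FPKM are fragments mapped per length of transcript and per mapped fragment of the library, a level scaled for length and library size. All mice were of the ICR strain, and those with busulfan, a DNA-alkylating drug that kills dividing germ cells, received 40 µg per g of body weight once, at 3 weeks of age. Whole testes were taken 2 weeks later, the testes without busulfan from mice of the same age, and were kept for 48 h in DMEM/F12 medium with 10% fetal bovine serum. The groups, of 3 samples each, were A0, A10 and A50 without busulfan and B0, BA10 and BA50 with busulfan, the number giving AOS in µg/mL. The series' design text gives the 2 AOS amounts as mg per kg of body weight instead. The paper's methods describe several testes per treatment and 3 repeats, without tying a repeat to a sample number. The labels do not say which animals gave which sample. The samples were numbered from 1 to 3 in each group, and p-values below measure the spread between these samples only.

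Spermatogenesis begins with spermatogonia, which divide by mitosis and then enter meiosis as spermatocytes. Spermatocytes copy their DNA once, repair programmed breaks by recombination, and then pass through a pair of divisions driven by cyclins, Polo-like kinase and the anaphase-promoting complex. The resulting spermatids condense their chromatin and build a flagellum from a centriole. Most testicular genes are read from several of these stages, and whole-testis RNA mixes them with Sertoli, Leydig, peritubular and blood cells. In such RNA, fewer cells of a type and less RNA per cell cannot be told apart.

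The genes stood only slightly above the other samples. The median of the 347 genes was 17.1, 18.2 and 17.1 FPKM in the 3 A50 samples, 14.6, 11.8 and 14.2 FPKM in A0, and between 14.6 and 15.2 FPKM in A10. With busulfan it was 8.48, 9.87 and 8.91 FPKM in B0, 9.34, 10.0 and 9.68 FPKM in BA10, and 9.14, 11.7 and 10.7 FPKM in BA50. Together the genes made up 2.15% to 2.28% of the FPKM sum in A50 and 1.03% to 1.87% in the other 15 samples. The ratio of the A50 mean to the A0 mean had a median of 1.25 and ran from 1.03 to 14.5. It was at least 1.5 for 73 genes and at least 2 for 15. On the log2(FPKM + 1) scale the median difference between A50 and A0 was 0.30 for these genes, and -0.06 for the 15790 genes tested. All of these values follow from the choice of the genes and were not tested.

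**Figure D1:**
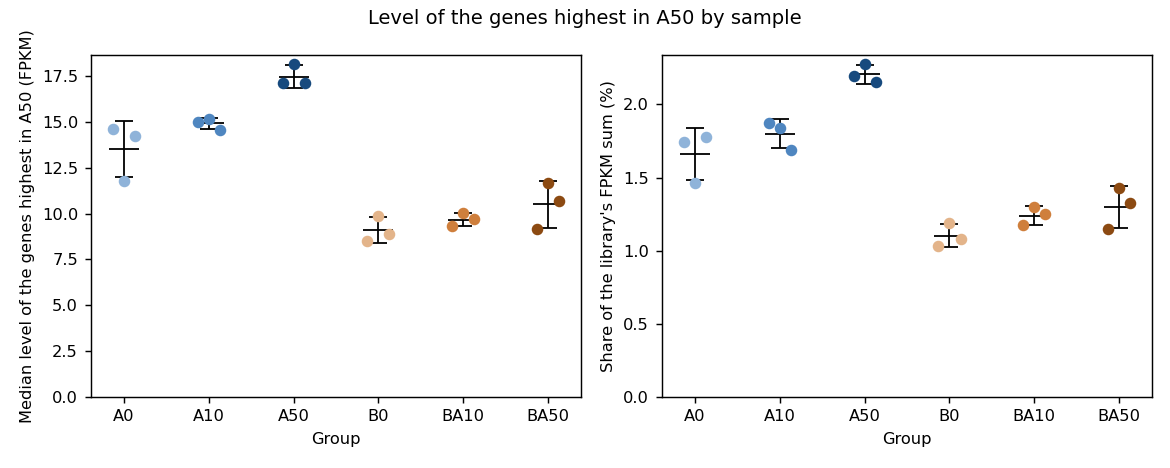
Points are the 18 samples, with the group mean and SD (n = 3) as a line and bars; the left panel gives the median level of the 347 genes in FPKM and the right panel their share of the library's FPKM sum in percent. The 3 A50 samples lie highest in both panels, as the choice of the genes requires, and the 9 busulfan samples lie lowest.

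The margin, the lowest A50 value divided by the highest of the other 15 values, had a median of 1.03, reached 1.1 for 43 genes, 1.2 for 11 and 1.5 for 1. Just inside the limit on the margin lay Cep120 (A50 minimum 26.83 FPKM, highest other value 26.82), Ube3c and Rnf187. Just outside it lay Foxm1, a transcription factor of mitotic genes, whose lowest A50 value of 27.35 FPKM fell below an A10 value of 27.36, and Myo1a, Tmed6, Zer1 and Dock3, which tied. Just inside the limit on the mean lay BGI_novel_G000678 (2.03 FPKM), Pacsin1 (2.07) and Tshr (2.17), and just outside it Rnf223 (1.84), Mypn (1.83) and the gene numbered 108168952 (1.83). A further 43 genes met the condition on order with a mean below 2 FPKM. The same rule gave 86 genes for A0, 23 for A10, 249 for B0, 7 for BA10 and 34 for BA50, and 71 genes had their lowest levels in A50. The second-highest group mean was that of A10 for 278 of the 347 genes and that of A0 for 57, and the lowest was that of B0 for 263.

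A single library set much of the list. The highest value outside A50 came from A10 replicate 3 for 130 of the genes, from the other 2 A10 samples for 58 and 77, from A0 for 58 and from BA50 for 21. Without A10 replicate 3 the rule named 1340 genes, the 347 among them. That library had the lowest correlation with its group (Pearson's r across genes 0.962 and 0.968, against 0.991 to 0.993 within A50), the lowest summed Sertoli cell markers (1903 FPKM, against 3844 to 7797 in the other 17 samples) and the highest spermatocyte markers (2338 FPKM). Without A50 replicate 1 or 3 the rule named 565 and 693 genes. With each sample scaled to the same FPKM sum it named 583 genes, 315 of them among the 347, and after quantile normalization 298 genes, 199 of them among the 347.

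The summed level of 18 spermatogonium markers was 368 to 397 FPKM in A50, 326 to 357 FPKM in A0 and 311 to 367 FPKM in A10. That of 26 spermatocyte markers was 1923 to 1993 FPKM in A50, 1162 to 1555 FPKM in A0 and 1611 to 2338 FPKM in A10. That of 30 spermatid markers was 6877 to 7955 FPKM in A50, 4760 to 8234 FPKM in A0 and 5210 to 10630 FPKM in A10. Macrophage and immune markers, 18 genes, summed to 654 to 709 FPKM in A50 and 772 to 1059 FPKM in A0. So the spermatogonium and spermatocyte sums of every A50 sample lay above every A0 sample, while the spermatid sums overlapped. For spermatogonium markers this held for the sum only. Their mean of log2(FPKM + 1) overlapped, at 3.08, 3.21 and 3.18 in A50 and 3.08, 3.29 and 3.07 in A0. That of the spermatocyte markers lay apart, at 4.74 to 4.82 in A50 and 4.18 to 4.52 in A0. Against A10, the spermatogonium sums of A50 lay barely apart (lowest A50 367.56 FPKM, highest A10 367.15), and the spermatocyte sums overlapped. Among the germ cell markers no gene was at 0 in any sample of the spermatocyte and spermatid lists, and up to 3 of the 18 spermatogonium markers were. The part of these marker levels in the list was not tested.

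Few of the marker genes themselves were in the list, each count again taken over genes with an A50 mean of at least 2 FPKM. Ccna1, the cyclin that spermatocytes need to enter the meiotic divisions, was the only one of 26 spermatocyte markers, 3.85% beside 2.60% of all such genes, and none of 30 spermatid, 15 spermatogonium, 20 Sertoli cell or 8 Leydig cell markers qualified. Nor did any of the markers of peritubular myoid cells, macrophages, endothelium, blood, fat, epithelium or muscle. The lists of heat shock, immediate early, hypoxia, interferon, cytokine, Toll-like receptor, collagen, antioxidant, cholesterol and histone genes also held no member. Of 20 cell cycle genes 5 were members (Mcm7, Top2a, Plk1, Ccnb1 and Kif11), 25% of that list beside 2.60% of all 13321 genes with an A50 mean of at least 2 FPKM. These lists were compiled with results of these data known, so the shares are descriptions.

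A gene number was given for 326 of the 347, and the 325 of them with a symbol were protein-coding in RefSeq. So were 20365 of the table's 22657 genes. None of the 111 long non-coding RNAs or of the 126 pseudogenes and 50 transcribed pseudogenes in the table was a member. How many of these reached the limit on the A50 mean was not counted, so no share can be given. GENCODE listed 1 member, Gm28802, as an unprocessed pseudogene that RefSeq gives as protein-coding. The other 21 members were gene models made by the sequencing provider (named BGI_novel), which no annotation used here places. Of 523 such models with an A50 mean of at least 2 FPKM 4.02% were members, against 2.55% of 12798 numbered genes.

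The members' transcripts were longer than those of other genes. For 324 members placed in GENCODE, the longest transcript had a median of 3826.5 bases, against 3177 for 12276 other genes with an A50 mean of at least 2 FPKM. It had a median of 12 exons, against 8, and its gene spanned a median of 31086.5 bases, against 23389.5. The middle 50% of the members' transcripts ran from 2798 to 5337 bases and that of the other genes from 2003 to 4616 bases, so the ranges overlapped widely. The GC content was alike, with medians of 50.1% and 49.4%. The longest members were Strbp (16348 bases), which encodes an RNA-binding protein of spermatid microtubules, Hectd4 (15482), and 3 genes of dynein heavy chains, Dnhd1 (14536), Dnah14 (13696) and Dnah6 (12652). The shortest were Ccl27b (425 bases), Gm28802 (944), Cdpf1 (997), Rpl10l (1023) and Gmnn (1127).

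Members came from every autosome and both sex chromosomes. Chromosome 11 held the most, 43 of its 1018 genes with an A50 mean of at least 2 FPKM (4.22%), and the X chromosome the smallest share, 1 of 535 (0.187%). The X-linked member was Pramel3, at 4.16 FPKM in A50 and 3.31 in A0. The Y chromosome had the largest share, 5.26%, but from only 2 of 38 genes: Zfy1, a zinc finger transcription factor of spermatocytes, and Gm4064. The X and Y chromosomes are silenced in spermatocytes at the pachytene stage, a textbook feature of male meiosis. Its part in these shares was not tested.

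**Figure D2:**
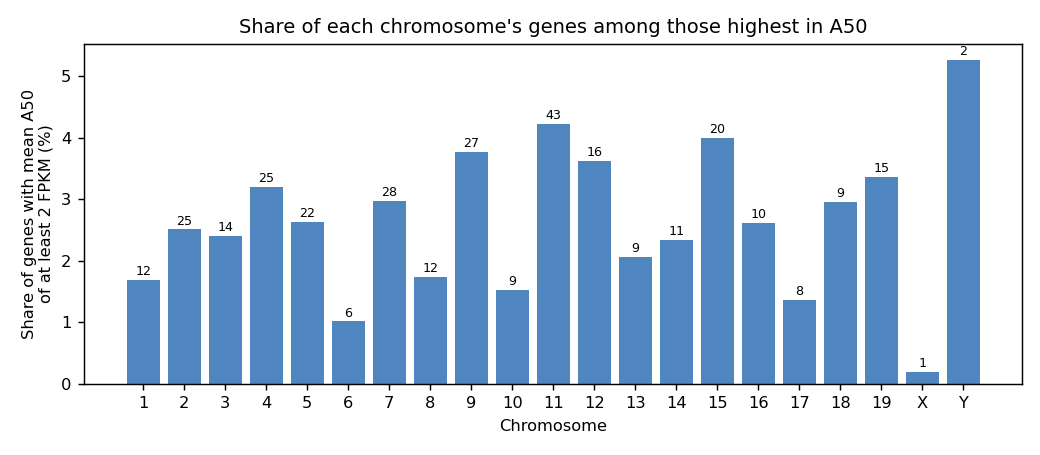
Bars give, for each chromosome, the share in percent of its genes with an A50 mean of at least 2 FPKM that were among the 347, and the number above a bar counts the members. The X chromosome has 1 member, and chromosome 11 has 43.

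By what they encode, 204 of the members were placed by hand in 9 roles after their names were seen, and the other 143, the provider's models included, were left without a role. The roles differed little in size. The median ratio of the A50 mean to the A0 mean was 1.37 for 21 genes of cell division, 1.32 for 29 genes of cilia, centrosome and flagellum, and 1.27 for 24 genes of metabolism and mitochondria. It was 1.25 for 30 genes of transcription and 17 genes of DNA replication and repair, and 1.23 for 10 genes of membrane traffic. It was 1.21 for 26 chromatin genes, 1.16 for 29 genes of RNA processing and 1.15 for 18 genes of ubiquitin and SUMO. No gene with a role reached a ratio of 2, and the 15 genes at or above it had none.

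**Figure D3:**
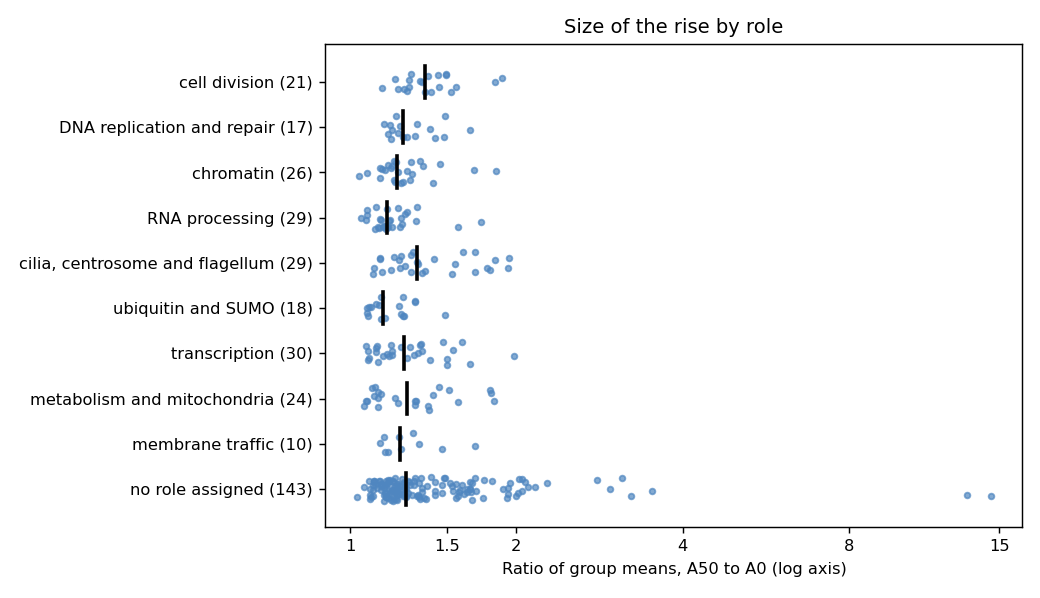
Each point is 1 of the 347 genes, placed by the ratio of its A50 mean to its A0 mean (log axis) and by role, with the number of genes in parentheses and the median as a bar. Genes with a role lie between 1.04 and 1.98, and the highest ratios, up to 14.5, belong to genes without one.

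Genes of cell division formed the group with the largest median. They covered entry into division (Ccnb1, Ccna1, Plk1), the spindle and its motors (Kif11, Kif18b, Kif23, Aspm, Nedd1), the kinetochore (Cenpe, Dsn1, Zwilch), the chromosomal passenger complex (Incenp, Cdca8), condensin (Ncapd2, Ncaph), chromosome untangling (Top2a) and the anaphase-promoting complex and separase at the exit from division (Cdc20, Fbxo43, Espl1). Ccnb1, the cyclin that activates Cdk1, stood at 30.0, 32.8 and 30.6 FPKM in A50, 24.9, 21.7 and 21.7 in A0, and 22.4, 27.8 and 29.7 in A10. In the busulfan groups it stood at 14.8, 18.1 and 12.4 FPKM in B0, 15.9, 18.2 and 14.2 in BA10, and 18.6, 22.9 and 20.3 in BA50. The highest A10 sample came close to the lowest A50 sample, and the BA50 samples lay above the B0 samples without overlap.

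Plk1, the mitotic kinase of centrosomes and kinetochores, stood at 36.6, 40.9 and 35.1 FPKM in A50, 27.6, 21.4 and 24.8 in A0, and 23.8, 30.6 and 34.7 in A10. With busulfan it stood at 14.5, 16.9 and 10.7 FPKM in B0 and 16.3, 26.7 and 24.9 in BA50. BA50 replicate 1 lay within the B0 range and the other BA50 samples above it. Ccna1 stood at 56.8, 67.0 and 57.7 FPKM in A50, 36.6, 20.7 and 39.3 in A0, 16.3, 21.8 and 12.1 in B0, and 18.8, 33.2 and 37.3 in BA50, again with BA50 replicate 1 inside the B0 range.

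Cdc20, an activator of the anaphase-promoting complex, stood at 45.1, 47.3 and 44.6 FPKM in A50, 37.2, 28.4 and 32.3 in A0, 12.5, 12.2 and 9.06 in B0, and 15.2, 17.5 and 20.6 in BA50. Top2a, which untangles sister DNA, stood at 45.4, 44.7 and 42.0 FPKM in A50, 37.5, 36.5 and 35.4 in A0, 10.1, 11.0 and 9.43 in B0, and 13.8, 12.03 and 10.8 in BA50. Cdca8, a subunit of the chromosomal passenger complex, stood at 40.4, 41.1 and 40.3 FPKM in A50, 28.6, 21.1 and 28.5 in A0, 5.91, 6.68 and 6.17 in B0, and 7.80, 8.33 and 9.03 in BA50. For all 3 genes the busulfan samples lay far below every sample without busulfan.

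**Figure D4:**
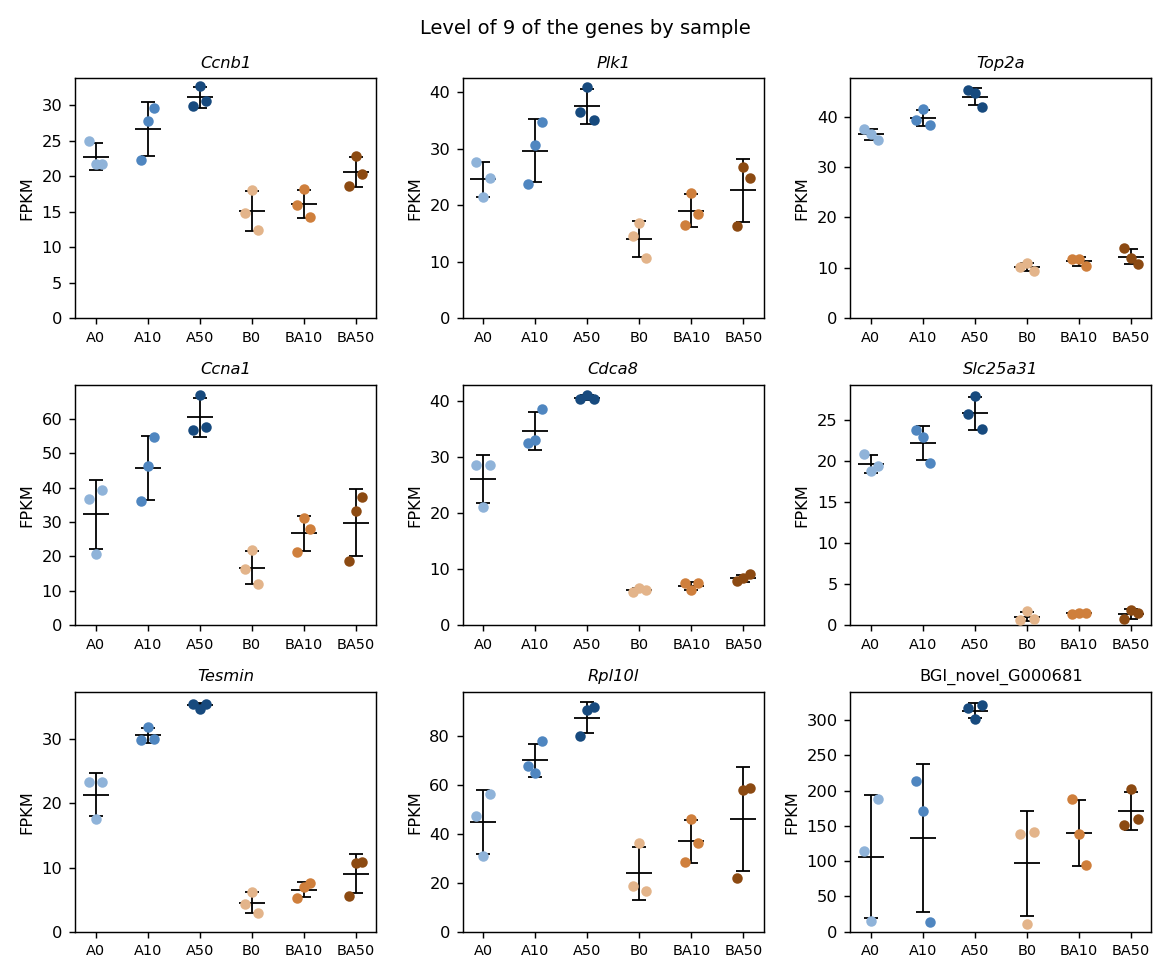
Points are the levels in FPKM of 9 of the 347 genes in each of the 18 samples, with the group mean and SD (n = 3). The A50 samples are highest in each panel, as chosen; Slc25a31, Top2a and Cdca8 fall apart by busulfan, and BGI_novel_G000681 is low in single samples of A0, A10 and B0.

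Promoters of these division genes were searched for sequence features known from genes of late G2 and mitosis: the CCAAT box, which binds the factor NF-Y, and the cell cycle genes homology region (CHR), which binds the DREAM and MuvB complexes. Promoters came from RefSeq on GRCm38.p6, where 265 members had 337 promoters. The CCAAT letters, on either strand in the 250 bases before the start, occurred in 13 of 16 promoters of the division genes (81.2%), in 41.5% of the members' promoters, in 35.1% of the promoters of other genes with an A50 mean of at least 2 FPKM, and in 33.8% of all 32851 promoters. They also occurred in 9 of 13 promoters of the genes of DNA replication and repair (69.2%), 17 of 30 of cilia, centrosome and flagellum (56.7%), 15 of 33 of RNA processing (45.5%) and 9 of 28 of chromatin (32.1%). TTTGAA, the CHR letters, occurred in 6 of the 16 (37.5%), in 10.4% of the members' promoters, in 11.2% of those other genes' and in 16.0% of all. The letters AACNGTT of a MYB-type site occurred in none of the 16, in 4.15% of the members' promoters, in 3.31% of those other genes' and in 3.80% of all. Those of the cAMP response element, TGACGTCA, occurred in 1 of the 16, in 3.56% of the members' promoters, in 2.44% of those other genes' and in 1.55% of all. Those of a GC box, GGGCGG, occurred in 12 of the 16 (75%), in 58.2% of the members' promoters, in 54.6% of those other genes' and in 32.7% of all. A match of letters is a description and shows no binding.

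Below, the 150 bases before the start are given 5′ to 3′ on the gene's strand, with CCAAT and TTTGAA, or their reverse complements ATTGG and TTCAAA, in capitals. They lie at chr7:122159285-122159434 on the plus strand for Plk1, chr19:37376232-37376381 on the plus strand for Kif11, chr4:118437344-118437493 on the minus strand for Cdc20, chr11:99024190-99024339 on the minus strand for Top2a, and chr11:87404915-87405064 on the plus strand for Tex14. Tex14, which encodes a protein of the bridges between germ cells, is shown as a division gene without either set of letters here.
Plk1: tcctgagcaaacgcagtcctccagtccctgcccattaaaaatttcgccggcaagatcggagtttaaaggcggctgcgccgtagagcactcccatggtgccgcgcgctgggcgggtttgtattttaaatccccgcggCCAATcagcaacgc
Kif11: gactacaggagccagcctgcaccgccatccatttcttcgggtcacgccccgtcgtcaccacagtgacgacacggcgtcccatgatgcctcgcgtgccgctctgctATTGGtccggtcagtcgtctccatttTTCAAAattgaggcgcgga
Cdc20: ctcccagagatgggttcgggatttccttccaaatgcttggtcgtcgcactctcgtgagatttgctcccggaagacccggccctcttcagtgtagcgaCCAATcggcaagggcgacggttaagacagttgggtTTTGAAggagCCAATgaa
Top2a: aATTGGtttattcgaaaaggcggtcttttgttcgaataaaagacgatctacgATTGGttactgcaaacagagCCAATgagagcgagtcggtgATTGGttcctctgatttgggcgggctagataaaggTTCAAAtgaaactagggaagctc
Tex14: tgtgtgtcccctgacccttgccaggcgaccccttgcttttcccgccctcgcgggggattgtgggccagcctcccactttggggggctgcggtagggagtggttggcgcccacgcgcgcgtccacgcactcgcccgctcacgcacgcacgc

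Top2a held 4 CCAAT matches, and in Kif11, Cdc20 and Top2a the CHR letters began 19, 18 and 23 bases before the start. Their positions relative to the CCAAT matches can be read from the capitals.

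Genes of DNA replication and repair included the DNA damage kinase Atr and members of the Fanconi and homologous recombination pathways (Brca2, Palb2, Fancd2, Faap100, Slx4, Ercc4). They also included Mre11a, Iho1, which is needed for meiotic breaks, and the replication genes Mcm7, Rfc1, Gmnn, Dtl and Rrm1. Atr stood at 49.1, 50.3 and 48.2 FPKM in A50, 39.0, 28.7 and 38.1 in A0, 47.9, 43.5 and 40.7 in A10, 8.16, 10.1 and 8.02 in B0, and 7.20, 9.60 and 9.46 in BA50. Mcm7, a subunit of the replicative helicase, stood at 46.7, 52.0 and 47.9 FPKM in A50, 40.7, 37.4 and 39.6 in A0, 24.0, 25.3 and 19.2 in B0, and 28.6, 36.9 and 31.1 in BA50. The 2 genes thus differed in BA50: its samples overlapped B0 for Atr and lay above B0 for Mcm7.

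Several members are known mainly from male germ cells. Slc25a31, the ADP/ATP carrier of germ cell mitochondria, stood at 25.7, 27.9 and 23.9 FPKM in A50, 20.9, 18.8 and 19.4 in A0, 0.63, 1.68 and 0.73 in B0, and 0.70, 1.86 and 1.48 in BA50. Tesmin, a metallothionein-like protein of spermatocytes, stood at 35.5, 34.8 and 35.5 FPKM in A50, 23.3, 17.5 and 23.3 in A0, 4.36, 6.22 and 2.99 in B0, and 5.61, 10.8 and 10.8 in BA50. Tcam1, a cell adhesion gene of germ cells, stood at 31.2, 31.7 and 27.0 FPKM in A50, 18.1, 11.3 and 20.2 in A0, 22.0, 24.2 and 23.5 in A10, 1.40, 2.56 and 1.44 in B0, and 2.47, 4.24 and 4.52 in BA50. Mgat4d, a glycosyltransferase relative of germ cells, stood at 32.7, 31.1 and 31.6 FPKM in A50, 14.9, 11.3 and 21.01 in A0, 24.9, 25.4 and 24.5 in A10, 5.42, 9.68 and 4.16 in B0, and 5.44, 15.03 and 11.6 in BA50. For Tcam1 and Mgat4d every A10 sample lay between the A0 and the A50 samples, and for Mgat4d BA50 replicates 2 and 3 reached into the A0 range. Rpl10l, an autosomal copy of the X-linked ribosomal gene Rpl10, stood at 80.1, 90.6 and 91.7 FPKM in A50, 47.2, 30.9 and 56.5 in A0, 18.8, 36.3 and 16.5 in B0, and 21.8, 57.8 and 58.7 in BA50. Its level may share reads with that of Rpl10. Rpl10l was the only one of 91 cytosolic ribosomal protein genes at the A50 limit that was a member, and Tdrd9 and Tdrkh, of the piRNA pathway that silences transposons, were members too.

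Genes of cilia, centrosomes and the flagellum were counted by family name. Members included 7 of 37 genes named Cep (18.9%), which encode centrosomal proteins, and 6 of 30 kinesins named Kif (20%). They also included 3 of 7 Bardet-Biedl genes named Bbs (42.9%: Bbs1, Bbs4 and Bbs10). Each count was taken over genes with an A50 mean of at least 2 FPKM, of which 2.60% were members. Only names with at least 3 members were counted. Among these, Phf (18.8%), Ddx (11.1%) and Trim (9.09%) also lay above that share, and Ccdc (2.52%), Fam (2.21%) and Tmem (1.84%) below it. Zfp and Slc are given below. Of the kinesins Kif3a, Kif3b and Kif9 were placed in this role and Kif11, Kif18b and Kif23 with cell division. The group also held Ift122 and Ttc30a2 of intraflagellar transport, the motor subunits Kif3a and Kif3b, and Cfap43, Dnah6 and Wdr63 of the axoneme. Ttc30a2 stood at 49.3, 57.5 and 49.3 FPKM in A50, 39.5, 14.9 and 32.7 in A0, 35.7, 37.2 and 40.5 in A10, 10.4, 22.2 and 13.7 in B0, and 11.2, 38.3 and 34.4 in BA50. Kif3a, which moves cargo along the cilium, varied less, at 16.1, 16.2 and 15.8 FPKM in A50, 13.3, 12.3 and 13.5 in A0, and 9.41, 9.71 and 8.78 in B0. A0 replicate 2 and BA50 replicate 1 were the lowest of their groups for Ttc30a2, as they were for the median of all 347 genes.

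Other roles held genes expressed in most cells. Among the 10 members with the highest A50 means were Crat, the carnitine acetyltransferase (256.5 FPKM ± 8.16, SD, n = 3, against 170.2 ± 33.7 in A0), Cct3, a chaperonin subunit (190.1 ± 2.93), Psmd2 of the proteasome (166.9 ± 6.09) and Ddx1, an RNA helicase (119.2 ± 3.78). Crat stood at 255.9, 265.0 and 248.7 FPKM in A50, 199.6, 133.4 and 177.7 in A0, 184.5, 199.4 and 232.0 in A10, 84.4, 123.4 and 73.9 in B0, and 104.2, 206.6 and 176.7 in BA50, where replicate 1 again lay within B0. Chromatin members included Trim28, Kdm1a, Ehmt2, Kat7 and Nsd2, and RNA processing members included Ewsr1, Sf3b2, Cnot1 and Eif4a3. Trim28, a corepressor of transposons, stood at 92.4, 91.5 and 90.5 FPKM in A50, 82.9, 74.3 and 79.8 in A0, 80.5, 82.7 and 90.1 in A10, 54.6, 53.2 and 46.5 in B0, and 60.6, 63.3 and 64.9 in BA50. Ewsr1, an RNA-binding protein, stood at 104.2, 107.1 and 101.2 FPKM in A50, 86.8, 92.5 and 95.5 in A0, and 93.8, 95.1 and 97.4 in A10. Eif4a3, of the exon junction complex, had an A50 mean of 63.5 FPKM and a ratio to A0 of 1.05, while Kdm4d, a histone demethylase of the testis, had the largest ratio of the chromatin genes, 1.84. Of 269 zinc finger genes named Zfp 12 were members (4.46%), and of 221 solute carriers 3 were (1.36%). Mrpl37 of the mitochondrial ribosome (ratio to A0 1.07) and Cox10 of haem synthesis were the only members of their families of 77 and 86 genes.

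The largest ratios belonged to models that no annotation names. The median ratio of the A50 mean to the A0 mean was 2.05 for the 21 provider-made models and 1.24 for the 326 numbered genes, and 11 models and 4 numbered genes (Gm13305, Mgat4d, Pnmal1 and Ppp1r1c) had a ratio of at least 2. BGI_novel_G000681 was the highest member of all, at 317.1, 301.2 and 321.4 FPKM in A50, but stood at 115.0, 14.9 and 188.7 in A0, at 213.9, 170.8 and 14.3 in A10, and at 138.9, 11.3 and 141.5 in B0. BGI_novel_G000683 was low in the same 3 samples, at 0.96 FPKM in A0 replicate 2, 0.88 in A10 replicate 3 and 1.84 in B0 replicate 2, and at 57.2 to 60.5 FPKM in A50. BGI_novel_G000656 had the largest margin (1.64), at 8.73, 6.14 and 7.26 FPKM in A50, 0.67, 0 and 1.02 in A0, 3.74, 1.25 and 0 in A10, and 0 in each B0 and BA10 sample. What these models encode, and whether models share a locus, cannot be read from the table.

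The choice of the genes used every contrast with A50, so only comparisons among the other 5 groups were tested. They used limma on log2(FPKM + 1) with p-values adjusted by Benjamini and Hochberg over the 15790 genes that reached 1 FPKM in 3 or more samples. All 347 genes passed that filter, which their A50 levels alone could ensure. A gene was called at an adjusted p of at most 0.001 and a log2 change of at least 1. The choice set the same ceiling for all these samples, and it favours genes whose samples lie low, the A0 samples among them. The fit also drew its spread from all 18 samples, A50 included, so the members' p-values were not free of the choice. The members' median coefficient of variation, SD over mean, was 4.27% in A50, 6.17% in A10, 8.95% in A0 and 9.55% to 11.3% with busulfan.

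At the same AOS concentration with busulfan, BA50 against B0, no member was called, and 0% of all genes tested were. At an unadjusted p under 0.05, 111 members were higher, 32.0% of the 347 beside 12.7% of all genes tested, and 4 were lower, 1.15% beside 11.6%. All 3 BA50 samples lay above all 3 B0 samples for 85 members, 24.5% beside 11.2% of all genes, and below them for 4 members, beside 13.5%. The median log2 change of the members was 0.17, and that of all genes tested -0.04. The smallest adjusted p of a member, by limma, was 0.081, for Sppl2b, an intramembrane protease (log2 change 0.53 ± 0.11, SE), and for BGI_novel_G000406 (1.35 ± 0.27). Spermatid markers moved with the same contrast: 24 of 30 were higher in BA50 at an unadjusted p under 0.05, with a median log2 change of 0.92, and 12 of 26 spermatocyte markers were, with a median of 0.50. Markers of some other cells were lower in BA50 at the same p, beside 11.6% of all genes tested. They were 6 of 7 of fat cells (median log2 change -2.57), 6 of 8 of simple epithelium (-2.35) and 9 of 11 of endothelium (-0.80). Of 16 macrophage and immune markers 3 were lower and none stood above 0 (-0.48). Sertoli cell markers had 3 of 21 lower and 1 higher (-0.07), and peritubular myoid markers 2 of 11 lower and 1 higher (-0.12). None of 11 Leydig cell markers was lower or higher at that p (-0.07). The summed fat cell markers were 206.9 to 888.5 FPKM in B0, 101.2 to 138.1 in BA50 and 62.7 to 84.9 in A0. The part of these cells in the members' values was not tested.

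Same-numbered B0 and BA50 samples deviated together for numbers 1 and 2 (r = 0.56 and 0.42) and less for number 3 (0.14). A fit with the replicate number as a block was therefore made for the busulfan samples, chosen after seeing the data. With that replicate block 42 members were higher at an adjusted p under 0.05, 12.1% of the 347 beside 2.06% of all genes, where without it none were, and none met the limits on both p and fold. With the block fitted to all 18 samples, as planned, none of the members was higher at an adjusted p under 0.05 by limma (the smallest was 0.12), nor was any other gene, and 113 were at an unadjusted p under 0.05. Without BA50 replicate 1, whose median over the members was the lowest of its group, 66 members were higher at that limit, 19.0% beside 3.88% of all genes. Without BA50 replicate 2, the number higher at an unadjusted p under 0.05 was 60 in place of 111, and without B0 replicate 3 it was 71. With only BA50 and B0 in the fit, which leaves A50 out but also leaves fewer samples for the spread, it was 58. Of all 15790 genes 1542 were then higher, in place of 2006.

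Of the 21 division genes, 15 were higher in BA50 than in B0 at an unadjusted p under 0.05 and none lower. The share higher was 32.0% among the 347 and 12.7% among all genes tested. Of the division genes 10 lay above B0 without overlap, beside 24.5% of the 347 and 11.2% of all, and 1, Aspm, below it. The median log2 change of the 21 was 0.37. The values by limma were 0.65 ± 0.20 (SE, adjusted p = 0.11) for Plk1, 0.62 ± 0.15 (0.10) for Cdc20, 0.44 ± 0.14 (0.12) for Ccnb1, 0.34 ± 0.08 (0.10) for Incenp and 0.23 ± 0.09 (0.15) for Top2a. Ccna1 stood at 0.78 ± 0.28, with an adjusted p of 0.14 by limma. Of the 20 genes of the cell cycle list, members or not, 9 were higher and none lower at an unadjusted p under 0.05. For DNA replication and repair, 9 of 17 members were higher by the same measure, and for chromatin 12 of 26. For cilia, centrosome and flagellum 11 of 29 were higher and 1 lower, again beside 32.0% higher among the 347 and 12.7% among all genes. The counts were 7 of 29 for RNA processing, 6 of 24 for metabolism and mitochondria, 3 of 10 for membrane traffic, 4 of 18 for ubiquitin and SUMO, 4 of 30 for transcription and 40 of the 143 without a role.

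The largest changes between BA50 and B0 belonged again to gene models: 1.68 ± 1.15 (SE) for BGI_novel_G001110 and 1.45 ± 1.07 for BGI_novel_G000681, whose adjusted p by limma were 0.37 and 0.40. Without B0 replicate 1 the first was 0.67, and without BA50 replicate 1 it was 2.85, and without B0 replicate 2 the second was 0.28. The models BGI_novel_G000406 (1.35) and BGI_novel_G000683 (1.11) came next, and among the numbered genes Rpl10l led with 0.88 ± 0.35 (adjusted p by limma 0.16) and Tesmin with 0.86 ± 0.23 (0.10). At the other end, Ly9, a lymphocyte surface receptor, stood at -0.63 ± 0.26, Zc3h6 at -0.35 ± 0.12, Gpbp1l1 at -0.26 ± 0.07, Cep192 at -0.22 ± 0.09 and Pdcd7 at -0.21 ± 0.13, with adjusted p by limma of 0.17, 0.12, 0.11, 0.17 and 0.31. Ly9 was spread widely, at 3.97, 0.94 and 1.76 FPKM in BA50 and 4.38, 2.82 and 3.83 in B0.

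At the lower AOS concentration the members lay slightly above the controls. In A10 against A0 no member was called, nor was any gene (0% of all tested). At an unadjusted p under 0.05, 37 members were higher, 10.7% beside 4.51% of all genes, and none was lower, beside 10.7% of all. The A10 and A0 samples did not overlap for 96 members that were higher, 27.7% beside 7.81%, and for 4 that were lower, 1.15% beside 12.2%. The median log2 change was 0.11, and -0.06 over all genes. The A0 samples, which the choice of the genes held down, are part of this contrast. Without A0 replicate 2, whose members' median was the lowest without busulfan, 6 members in place of 37 were higher at an unadjusted p under 0.05 and the median log2 change was 0.052, and without A10 replicate 2 or 3, 24 each were higher. With only A10 and A0 in the fit 22 members were higher, and 380 of all genes in place of 712. With all 6 groups fitted, the smallest adjusted p of a member by limma was 0.32. In that fit 5 of the 20 genes of the cell cycle list, members or not, were lower at an unadjusted p under 0.05. None of the 20 was higher at that p, 10 stood above 0, and their median log2 change was 0.04. Sertoli cell markers were lower in A10, 13 of 21 at an unadjusted p under 0.05 and none above 0 (median -0.48), and of 16 macrophage and immune markers 6 were lower and none stood above 0 (median -0.51). Of 26 spermatocyte markers 22 stood above 0 (median 0.33), 4 of them at that p. Of 16 spermatogonium markers 4 were lower and 1 higher at that p, and 3 stood above 0 (median -0.26). The part of these cells in the members' values was not tested.

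In BA10 against B0 no member was called, and again 0% of all genes were. At an unadjusted p under 0.05, 25 members were higher, 7.20% beside 1.89% of all genes, and 2 were lower, 0.576% beside 3.17%. The groups did not overlap for 28 higher members, 8.07% beside 3.64%, and for 3 lower ones, 0.865% beside 7.75%. The median log2 change was 0.10, and -0.03 over all genes. This count moved with single libraries: it was 5 without BA10 replicate 2, 9 and 8 without B0 replicates 1 and 3, 43 without BA10 replicate 1 and 67 without B0 replicate 2. With only BA10 and B0 in the fit it was 18, and 289 of all genes were higher in place of 298. With all 6 groups fitted, 8 of 21 division genes were higher. Plk1 stood at 0.43 ± 0.20 (SE) and Ccna1 at 0.66 ± 0.28, each with an adjusted p of 0.75 by limma. In the same contrast 6 of 7 fat cell markers (median log2 change -2.40), 6 of 8 of simple epithelium (-2.11) and 6 of 11 of endothelium (-0.55) were lower at an unadjusted p under 0.05, and all 30 spermatid markers stood above 0 (median 0.55), 3 of them at that p. The part of these cells in the members' values was not tested.

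**Figure D5:**
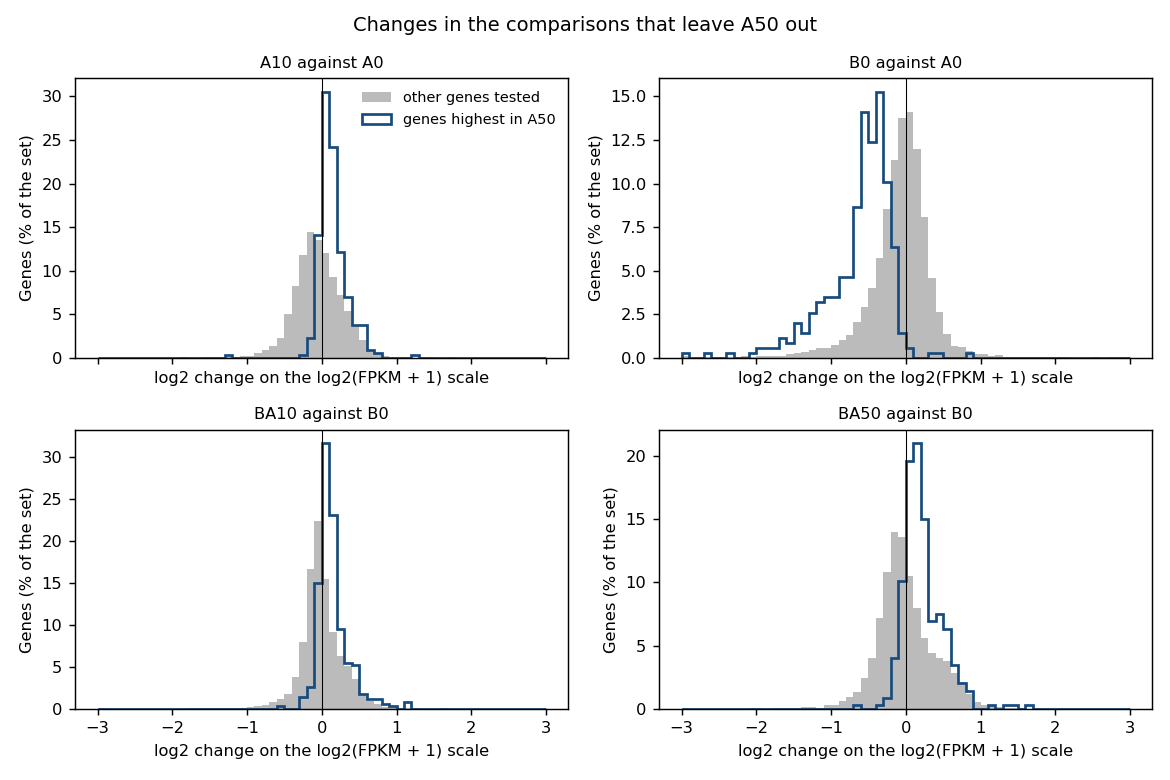
Histograms give the log2 change on the log2(FPKM + 1) scale, in percent of each set, for the 347 genes (line) and all other genes tested (grey) in the 4 comparisons without A50; values beyond 3 in size are drawn at 3. The line lies a little to the right of the grey in the 3 AOS comparisons and to the left in B0 against A0, where the members' median is -0.51.

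Most of the members stood lower with busulfan. In B0 against A0, 49 were called lower, 14.1% of the 347 beside 2.49% of all genes tested, and none was among the 0.0507% called higher. All 3 B0 samples lay below all 3 A0 samples for 285 members, 82.1% beside 22.7% of all genes, and above them for 1, beside 10.5%. The median log2 change of the members was -0.51, and -0.04 over all genes. Since a gene that busulfan lowers had only the samples without busulfan to exceed, the choice of the genes favours this direction, and the share is not independent support. Spermatogonium markers fell in the same contrast, 10 of 16 tested being called lower, and so did 12 of 26 spermatocyte markers, while none of 30 spermatid markers was called in either direction. Of the fat cell markers 4 of 7 were called higher in B0 (median log2 change 2.56), as were 3 of 8 of simple epithelium (2.06), and all 11 endothelium markers stood above 0, none called (median 0.55). The part of these cells in the members' values was not tested.

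Among the members with the largest falls were several known from germ cells. Slc25a31 fell by 3.40 on the log2 scale (SE 0.19, adjusted p by limma 1.7e-08), Tcam1 by 2.64 (SE 0.24, 2.8e-06), Mlc1, which encodes a membrane protein, by 2.40 (SE 0.12, 6.7e-09) and Tesmin by 2.05 (SE 0.23, 1.8e-05). Gm4064 on the Y chromosome fell by 1.96 (SE 0.15), and Dtl, of replication licensing control, by 1.91 (SE 0.10). Of all 347 members 14.1% were called lower, and of all genes tested 2.49%. By role, 12 of 21 division genes and 8 of 17 genes of DNA replication and repair were, with median log2 changes of -1.14 and -0.96. Among them were Cdca8 at -1.89 ± 0.11 (SE), Atr at -1.89 ± 0.13, Top2a at -1.74 ± 0.09, Cdc20 at -1.46 ± 0.15 and Kif11 at -1.14 ± 0.09. Mcm7 at -0.76, Plk1 at -0.78, Ccnb1 at -0.58, Ccna1 at -0.89 and Rpl10l at -0.93 did not reach the limits. In the other roles 4 of 26 chromatin genes, 3 of 29 genes each of RNA processing and of cilia, centrosome and flagellum, 3 of 24 of metabolism and mitochondria, 1 of 10 of membrane traffic, and no gene of transcription or of ubiquitin and SUMO were called lower. The 143 members without a role had 15.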

How the data were processed

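RNA-seq values of 18 cultured testis samples were analysed, 6 groups of 3, as labelled. The authors deposited them as FPKM with 2 decimals, made from poly(A) RNA sequenced on an Illumina HiSeq instrument. The supplementary methods name SOAPaligner and RPKM, while the submitters' processing notes name HISAT, Bowtie2 and RSEM with GRCm38.p5. FPKM sums ran from 463970 to 511274. Reads per sample are unknown: of 15612 ratios between low values 7.21% lay within 0.05 of a whole number, where even spacing gives 10%, so no whole reads were recovered and no interval for depth was computed.

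The members and the gene lists were chosen with earlier results of these data known. The A50 contrasts were described only. For the other contrasts, limma 3.58.1 (R 4.3.3) was fitted to all 6 groups with a trended prior, on log2(FPKM + 1), a scale that understates changes of low genes, with the limits of the study (adjusted p 0.001, log2 1). MARS, used in the study, needs counts. The fit was tested on simulated data: of 200 genes changed in BA50 against B0 among 15790, 138, 165 and 193 were called at log2 changes of 1.5, 2 and 3.

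Deviations from the group means correlated between same-numbered B0 and BA50 samples, with r = 0.56, 0.42 and 0.14 for numbers 1 to 3. The labels tie no number to a litter or day. Gene structure came from GENCODE M21 and promoters from RefSeq GRCm38.p6. Named genes are the members with the highest A50 means, ratios, margins and changes in BA50 against B0, those nearest the limits, those on the lists, and the longest and shortest. All other genes named were chosen after their values were seen. Alternatives were the scaling, pseudocount, filter, groups in the fit, block and single samples left out.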

Additional observations from a re-analysis of the deposited data

Results flagged for a closer look

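Of the 347 genes, 5 differed in direction between AOS cultures with and without busulfan, in that all samples of each pair of groups lay apart in opposite directions. The difference itself was not tested. Gpbp1l1 averaged 29.2 FPKM in A50 and 26.9 in A0, but 18.3 in BA50 and 22.0 in B0. Mterf4, of mitochondrial ribosome assembly, averaged 14.2 FPKM in A50 and 11.6 in A0, but 9.57 in BA50 and 10.5 in B0. Cep192, which recruits proteins to centrosomes, averaged 11.0 FPKM in A50 and 10.0 in A0, but 5.96 in BA50 and 7.11 in B0. Aspm, a spindle pole protein, averaged 3.78 FPKM in A50 and 3.10 in A0, but 1.04 in BA50 and 1.103 in B0. BGI_novel_G000678 averaged 0.913 FPKM in A10 and 0.140 in A0, but 0.0333 in BA10 and 0.537 in B0, levels close to 0. For the first 4 genes the choice of the members fixed the direction in A50. They are the 4 members, 1.15% of the 347, that lay below B0 without overlap in BA50, beside 13.5% of all genes tested. Groups of 3 are too small for a check of single outlying samples.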

How the results depend on the processing

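The number of genes highest in A50 was 347. It was 583 with equal FPKM sums and 1 with a margin of at least 1.5. Leaving out single samples gave 347 to 1340 genes, the highest without A10 replicate 3 and the next, 693, without A50 replicate 3. In B0 against A0 the members called numbered 49. They were 6 with only the 2 groups in the fit, which leaves fewer samples for the spread, 31 with a filter at a mean of 5 FPKM, which tests fewer members, and 252 at an adjusted p under 0.05 with no fold limit. Leaving out single samples gave 40 to 54. With a replicate block 46 were called, and in BA50 against B0, A10 against A0 and BA10 against B0 the replicate block left 0 called and medians of 0.17, 0.11 and 0.10. In the other comparisons the r of same-numbered samples ran from -0.43 to 0.34. The 0.34, of number 2 in BA10 against B0, exceeded the 0.14 of number 3 in BA50 against B0. No call of the members changed under the block except in B0 against A0. The medians of the members kept their sign in all alternatives run. Without single samples they ran from 0.124 to 0.220 in BA50 against B0, from 0.052 (without A0 replicate 2) to 0.140 in A10 against A0, from 0.075 (without B0 replicate 1) to 0.147 (without B0 replicate 2) in BA10 against B0, and from -0.597 to -0.474 in B0 against A0. Of 685 alternatives for 48 single changes, 7 lost the call, all with only the 2 groups in the fit, and 1 reversed, Ccnb1 in BA10 against B0 at -0.028 without B0 replicate 3, within -0.028 to 0.228 without single samples. Depth is unknown, so levels near 0 FPKM are uncertain.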
